A study of Mus musculus with 73 samples.

Results

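Grb10, the long noncoding transcript LOC102631979 that lies inside it and the neighbouring gene Ddc were taken from the table by name, as 3 of its 30546 genes, and followed through every library. All 3 are on chromosome 11 of mm10. Grb10 spans 11930499 to 12037422, LOC102631979 spans 11958406 to 11967116, and Ddc spans 11814101 to 11898144, with 32354 bases between the end of Ddc and the start of Grb10. The data are RNA sequencing of epiblast, which forms the embryo proper, and of extraembryonic ectoderm (ExE), which contributes to the placenta, from single mouse embryos at embryonic day 6.5. Reads over sequence differences between the parents were assigned to the maternal or the paternal allele.

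Wild-type embryos came from 2 reciprocal crosses, written mother first. BDF1xCAST had a BDF1 mother (a hybrid of the C57BL/6 and DBA strains) and a father of the wild-derived CAST strain, with 7 epiblast and 7 ExE libraries. CASTxBDF1 had the parents exchanged, with 4 and 4. All knockouts were BDF1xCAST zygotes injected with Cas9 mRNA and several guide RNAs. Dnmt1, the maintenance DNA methyltransferase gene, was targeted in 3 epiblast and 3 ExE libraries. Ehmt1 and Ehmt2, which encode the histone H3 lysine 9 methyltransferases GLP and G9a, were targeted together (G9a-Glp) in 6 and 8. Rnf2, of Polycomb repressive complex PRC1, was targeted in 6 and 5, and Eed, of PRC2, in 9 and 10. Knockout and BDF1xCAST wild-type zygotes were made by sperm injection and carried by CD-1 females, per the labels, whereas CASTxBDF1 embryos came from natural mating, so that cross direction and mode of fertilisation cannot be told apart. The wild-type BDF1xCAST libraries are the controls of all 4 knockouts, which therefore share them, and wild type beside a knockout means BDF1xCAST. Cells of an injected embryo can carry different edits.

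Grb10 encodes an adaptor protein that binds the activated insulin and IGF1 receptors and restrains growth. It is imprinted: in most mouse tissues only the maternal allele is transcribed from the main promoter, whereas in neurons a different promoter drives the paternal allele. DNA methylation placed in the oocyte marks the maternal copy of a CpG island within the gene. Ddc, which encodes aromatic L-amino acid decarboxylase, an enzyme of dopamine and serotonin synthesis, is expressed from both alleles in most tissues and from the paternal allele in the developing heart.

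The promoters are shown because DNA methylation and Polycomb complexes, both targeted here, act at CpG-rich starts, and because the annotated starts of these neighbours differ in CpG content. Each window, from RefSeq on GRCm38.p6, runs 5′ to 3′ on the minus strand from 250 bases before to 50 bases after a transcription start, and capitals mark each CG. All 3 genes matched the promoter table by symbol.
Grb10, chr11:12037371-12037670: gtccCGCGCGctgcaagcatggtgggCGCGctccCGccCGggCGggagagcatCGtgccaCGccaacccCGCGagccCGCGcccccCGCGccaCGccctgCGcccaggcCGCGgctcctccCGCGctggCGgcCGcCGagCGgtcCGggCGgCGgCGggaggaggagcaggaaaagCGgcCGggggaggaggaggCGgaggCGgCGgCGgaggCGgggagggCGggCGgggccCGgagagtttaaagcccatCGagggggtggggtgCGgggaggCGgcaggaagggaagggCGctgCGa
Grb10, chr11:12027922-12028221: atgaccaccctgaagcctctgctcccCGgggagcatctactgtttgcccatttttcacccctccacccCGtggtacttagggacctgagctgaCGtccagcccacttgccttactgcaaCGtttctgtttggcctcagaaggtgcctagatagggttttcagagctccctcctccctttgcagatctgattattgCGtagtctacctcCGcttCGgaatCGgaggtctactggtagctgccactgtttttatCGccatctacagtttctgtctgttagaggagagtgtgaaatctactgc
Ddc, chr11:11898095-11898394: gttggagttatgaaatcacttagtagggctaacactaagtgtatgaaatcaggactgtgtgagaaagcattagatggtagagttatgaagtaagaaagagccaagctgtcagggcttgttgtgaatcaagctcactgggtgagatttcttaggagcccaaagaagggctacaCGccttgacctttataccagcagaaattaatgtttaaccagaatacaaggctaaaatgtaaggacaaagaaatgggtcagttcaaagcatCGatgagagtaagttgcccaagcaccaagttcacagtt
Neither Grb10 window was matched to the methylated island within the gene. The first lies at the 5′ end of the gene. It held 45 CG dinucleotides, more than 98.1% of 32851 promoter windows of 300 bases, whose median was 7. The second Grb10 window, at a start inside the gene, held 9. The Ddc window held 2, and another annotated Ddc start had 5. The window listed for LOC102631979 held 7, and it lies outside the interval that the table gives for this transcript. The letters TGCCGC, which the zinc finger protein ZFP57 recognises when methylated, searched on both strands, occurred 1 time in the first Grb10 window and in 11.6% of all windows.

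Total reads over informative positions ranged from 1141414 to 3976031 per library outside the Rnf2 groups, and reached 17653087 in Rnf2 epiblast and 10263280 in Rnf2 ExE. Every Rnf2 epiblast library (at least 5549733) was deeper than every BDF1xCAST wild-type epiblast library (at most 3028267). Effects of Rnf2 and of depth, or of what goes with it, therefore cannot be told apart in epiblast. Of the targeted transcripts, Eed was below every wild-type BDF1xCAST library in 9 of 9 epiblast and 10 of 10 ExE libraries, and Dnmt1 in 3 of 3 and 2 of 3. Rnf2 was below every one of them in 4 of 6 epiblast and 0 of 5 ExE libraries. Ehmt1 was below in 2 of 6 epiblast and 5 of 8 ExE libraries, and Ehmt2 in 0 of 6 and 6 of 8. Mean wild-type Ehmt2 was 3.07 reads per 1000000 informative reads in epiblast and 15.4 in ExE. At that epiblast level a fall could hardly be seen, so the 0 of 6 says little on the knockout. The Rnf2 ExE and G9a-Glp epiblast results are therefore those of the libraries labelled so, as is that of Dnmt1 ExE embryo 1. Summed ExE markers were between 588 and 1055 reads per 1000000 informative reads (CPM) in wild-type BDF1xCAST ExE and between 27.1 and 229 CPM in epiblast. The 8 epiblast markers, summed, were between 3496 and 4894 CPM in that epiblast and between 750 and 1248 CPM in that ExE. In ExE 7 of the 8 had reads, and Pou5f1 was at 0. Visceral endoderm markers, summed, were highest in 2 wild-type epiblast libraries, BDF1xCAST embryo 8 (641 CPM; other libraries of that group 2.64 to 140) and CASTxBDF1 embryo 2 (2149 CPM; others 8.69 to 60.7).

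In the wild type, Grb10 was read almost wholly from the maternal allele in both tissues and both crosses. In BDF1xCAST epiblast, maternal and paternal reads were 92 and 0 in embryo 1, 98 and 0 in embryo 2, 74 and 1 in embryo 3, 86 and 2 in embryo 4, 128 and 1 in embryo 6, 129 and 3 in embryo 7, and 33 and 5 in embryo 8. In CASTxBDF1 epiblast they were 123 and 1, 136 and 1, 115 and 0, and 59 and 0. Embryo 8 of BDF1xCAST stood below the rest with a maternal share of 86.8%, and the others lay between 97.7% and 100%. In BDF1xCAST ExE the paternal allele had 0 to 4 reads of 58 to 98 in each library. CASTxBDF1 ExE had 143 and 7, 61 and 0, 124 and 5, and 87 and 0 maternal and paternal reads.

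Pooled over libraries, the maternal share was 98.2% of 652 reads in BDF1xCAST epiblast (95% exact binomial interval 96.8% to 99.0%) and 99.5% of 435 reads in CASTxBDF1 epiblast (98.3% to 99.9%). In ExE it was 98.5% of 581 reads (97.1% to 99.3%) and 97.2% of 427 reads (95.1% to 98.5%). Such intervals cover counting error only. With the strain of the allele as a term in the same fit, the maternal allele exceeded the paternal by 6.52 on the log2 scale in epiblast (SE 0.34, adjusted p = 2.38e-11, edgeR) and by 5.49 in ExE (SE 0.30, adjusted p = 1.23e-10, edgeR). LOC102631979 gave 5.87 in epiblast (SE 0.58, adjusted p = 6.5e-06, edgeR) and had too few reads for the test in ExE. Thus 2 of the 3 genes were called in epiblast, where 0.319% of 8469 autosomal genes passed, and 1 of the 2 tested in ExE, where 0.844% of 8654 passed. Reads over LOC102631979 appear to be counted for Grb10 too, so the 2 epiblast calls are not separate.

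Ddc was read from both alleles. Its pooled maternal share was 45.7% of 247 reads in BDF1xCAST epiblast and 56.6% of 175 in CASTxBDF1 epiblast, and the shares of single libraries spread from 17.9% to 80.6%. In ExE the shares were 56.7% of 240 reads and 63.8% of 185. The parental term of Ddc was 0.11 in epiblast (SE 0.26, adjusted p = 1.00, edgeR) and 0.57 in ExE (SE 0.19, adjusted p = 0.370, edgeR), neither of them called.

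The level of Grb10 was 38.0 ± 8.48 CPM in BDF1xCAST epiblast (SD, n = 7) and 28.7 ± 4.92 CPM in ExE (SD, n = 7). ExE was lower by 0.38 on the log2 scale (SE 0.18), which missed the threshold (adjusted p = 0.0741, edgeR). It passed without epiblast embryo 8, with a change of -0.44 (adjusted p = 0.0307, edgeR). LOC102631979 fell from 11.8 ± 6.00 to 4.60 ± 2.22 CPM (log2 change -1.26, SE 0.39, adjusted p = 0.0112, edgeR), in a comparison where 56.7% of 9340 genes were called. Ddc was at 15.1 ± 2.88 and 11.8 ± 3.35 CPM (adjusted p = 0.275). The maternal to paternal ratio of Grb10 did not pass between the tissues (log2 0.24, SE 0.73, adjusted p = 0.915, edgeR), nor did that of the other two (6.37% of genes called; 0 of 3 at an unadjusted p under 0.05). The 2 wild-type crosses did not differ in total reads of any of the 3 genes in either tissue (edgeR adjusted p from 0.845 to 0.959, with 0 of 3 at an unadjusted p under 0.05 in each tissue). Calls between the crosses were 0.0103% of genes in epiblast and 1.06% in ExE.

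**Figure D1:**
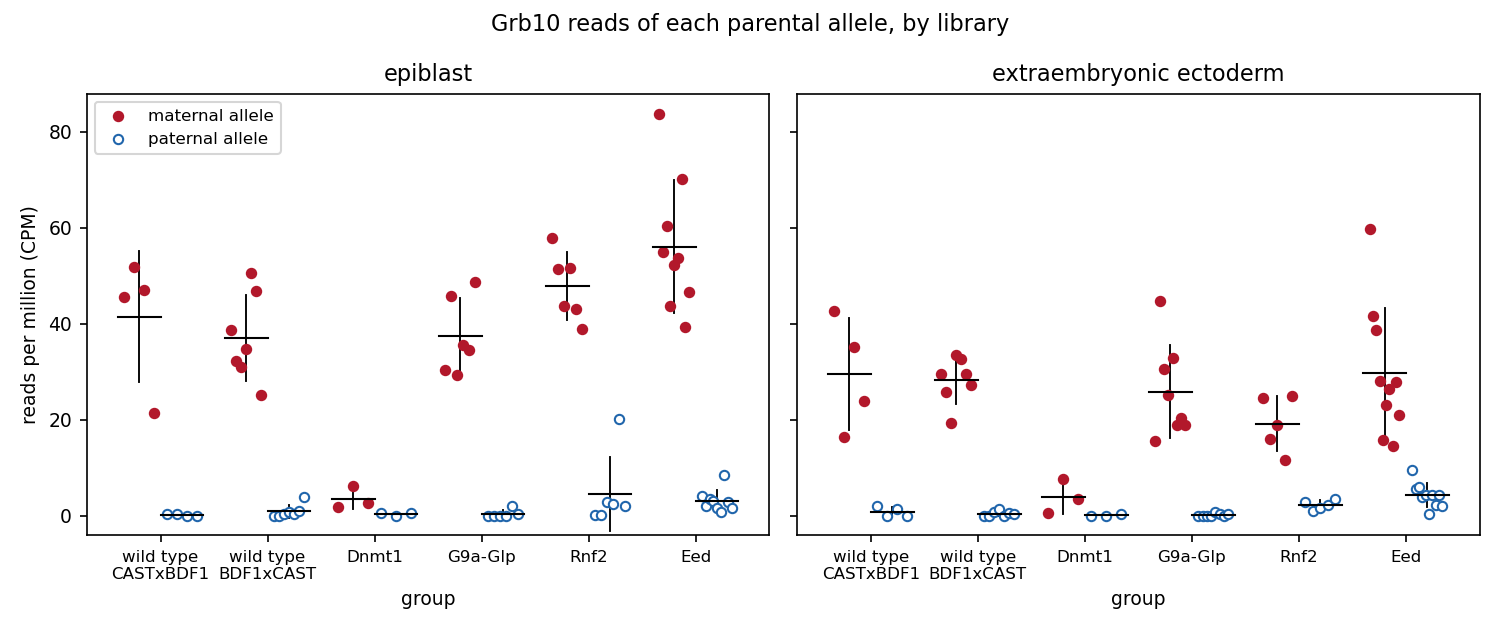
Grb10 CPM of the maternal (filled) and paternal (open) allele in each library, by group (x axis), for epiblast (left) and extraembryonic ectoderm (right). Horizontal bars are means and vertical bars SD. The Dnmt1 libraries have 0.51 to 7.60 CPM in total, below every other group.

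Grb10 fell in the Dnmt1 knockout in both tissues, to 10.4% of the wild-type mean in epiblast and 13.9% in ExE. The reads lost were mostly maternal, as nearly all wild-type reads were. The 3 epiblast libraries had 2.34, 6.13 and 3.35 CPM, from 5, 7 and 5 reads, against 29.0 to 51.0 CPM in the wild type. The 3 ExE libraries had 0.51, 7.60 and 3.87 CPM, from 1, 13 and 9 reads, against 19.9 to 35.0 CPM. The groups did not overlap in either tissue. The log2 change was -3.56 in epiblast (SE 0.38, an 11.8-fold fall, adjusted p = 0.000172, edgeR) and -3.12 in ExE (SE 0.44, an 8.68-fold fall, adjusted p = 0.000770, edgeR). Of the 3 genes, 2 (Grb10 and LOC102631979, whose reads appear to be counted for Grb10 too) were called in epiblast (14.1% of genes called) and 1 in ExE (18.5% called). The change did not differ between the tissues in a test of the difference (log2 0.49, SE 0.61, adjusted p = 0.869, edgeR; 0.247% of genes called). Without embryo 1, whose Dnmt1 transcript was not below the wild type in ExE, the ExE change was -2.62 (adjusted p = 0.00268, edgeR). Leaving out each library in turn, the ExE change ranged from -3.87, without Dnmt1 embryo 2, to that value, and every one of the 10 fits was called (edgeR adjusted p up to 0.0121).

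Maternal Grb10 reads in Dnmt1 epiblast were 4, 7 and 4, and paternal reads 1, 0 and 1. Maternal Grb10 was at 3.56 ± 2.26 CPM (SD, n = 3) against 37.1 ± 9.02 (SD, n = 7; exact two-sided permutation p = 0.00833, the smallest the design allows, adjusted p = 0.0444 over 48 allele tests). In Dnmt1 ExE the maternal allele was at 3.85 ± 3.56 CPM against 28.2 ± 4.81 (exact permutation p = 0.00833, adjusted p = 0.0444). Paternal Grb10 was at 0.380 against 0.932 CPM in epiblast and 0.143 against 0.456 CPM in ExE, neither past the threshold (exact permutation, adjusted p = 0.789 and 0.735). At those wild-type levels a paternal fall could hardly be seen, so a loss particular to the maternal allele was not shown. A maternal share could not be tested here, because 0 of 3 epiblast libraries and 1 of 3 ExE libraries reached 10 reads. Pooled, the paternal allele had 2 of 17 reads in epiblast and 1 of 23 in ExE. Summed over 8 genes, epiblast markers were higher in Dnmt1 epiblast (5093 to 6199 CPM) than in the wild type (3496 to 4894 CPM), and 4 parietal endoderm markers were higher in Dnmt1 ExE (141 to 257 CPM against 59.7 to 127); their part in the fall of Grb10 was not tested. In bulk tissue, fewer cells with the transcript and less transcript per cell cannot be told apart.

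**Figure D2:**
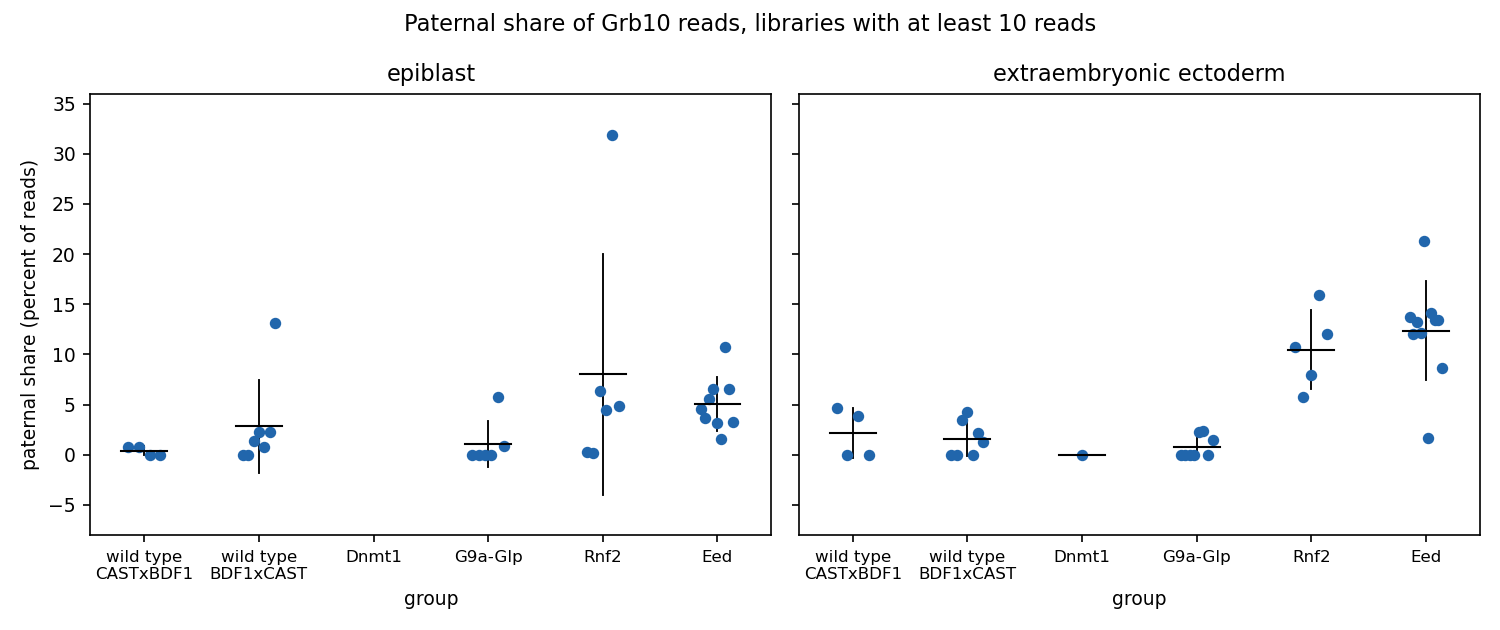
Paternal share of Grb10 reads (percent) in each library with at least 10 reads, by group (x axis), for epiblast (left) and extraembryonic ectoderm (right), with means and SD. In ExE the wild-type BDF1xCAST libraries lie between 0% and 4.26%, the Rnf2 libraries between 5.75% and 15.9%, and the Eed libraries between 1.67% and 21.3%.

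In ExE of the Polycomb knockouts, paternal Grb10 was higher than in the wild type, and the maternal allele remained the main source. The paternal allele is CAST in every knockout, so parent and strain cannot be told apart in these libraries. In Eed ExE the paternal reads of embryos 1 to 10 were 26, 12, 16, 12, 13, 1, 14, 9, 11 and 7, of 60 to 190 reads in all. The paternal share was above the highest BDF1xCAST wild-type library (4.26%), and above the highest CASTxBDF1 library (4.67%), in 9 of 10 embryos. Embryo 6 was the exception, with 1 paternal read of 60 (1.67%, exact 95% interval 0.0422% to 8.94%). In the libraries labelled Rnf2 the paternal reads were 29 of 270, 10 of 174, 3 of 38, 18 of 113 and 24 of 199, and all 5 shares were above both wild-type crosses.

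The mean paternal share of Grb10 was 12.4% in Eed ExE (n = 10), 10.5% in Rnf2 ExE (n = 5) and 1.60% in wild-type ExE (n = 7). The log2 ratio of maternal to paternal reads fell by 3.06 in Eed (SE 0.48, adjusted p = 0.000169, edgeR) and by 2.84 in Rnf2 (SE 0.54, adjusted p = 0.0103, edgeR). For Eed, 1 of the 3 genes was called (2.65% of genes called), and for Rnf2 1 of 3 (0.922% called). The Rnf2 call was lost in limma on log ratios (adjusted p = 0.110). It was also lost with the embryo number as a replicate block (adjusted p = 0.180, edgeR), but these numbers do not pair Rnf2 with wild-type libraries.

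Counted per allele, paternal Grb10 rose to 4.25 ± 2.50 CPM in Eed ExE from 0.456 ± 0.547 (exact two-sided permutation p = 0.00103, adjusted p = 0.0247), a 9.32-fold difference in means. In Rnf2 ExE it rose to 2.24 ± 0.989 CPM (exact permutation p = 0.00253, adjusted p = 0.0364). Maternal Grb10 was at 29.7 ± 13.7 CPM in Eed ExE against 28.2 ± 4.81 in the wild type (exact permutation, adjusted p = 0.920). In Rnf2 ExE maternal Grb10 was at 19.2 ± 5.72 CPM, lower by 9.00 CPM (exact permutation, adjusted p = 0.0788), and this passed when reads were scaled by TMM (adjusted p = 0.0485, exact permutation). Total Grb10 reads were not called in either (log2 0.05, adjusted p = 0.867 in Eed and -0.47, adjusted p = 0.117 in Rnf2, edgeR). ExE markers, summed over all 8, were lower in Eed ExE (313 to 659 CPM) than in wild-type ExE (588 to 1055 CPM). Visceral endoderm markers, summed over 10, were higher in Eed ExE (23.9 to 60.0 CPM) than in the wild type (8.56 to 21.3 CPM), and in Rnf2 ExE they ranged from 19.8 to 34.0 CPM. All 10 had reads in Eed and Rnf2 ExE and 8 in the wild type, where Sox17 and Foxa2 were at 0. However, 8 of the 10 averaged below 1 CPM in Eed, in Rnf2 and in wild-type ExE alike, so the sums rest on few genes. In G9a-Glp ExE the same sum ranged from 19.6 to 137 CPM. The part of the ExE and visceral endoderm markers in these results was not tested.

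In epiblast the level of Grb10 rose in the Eed knockout, and its change in Rnf2 was close in size but missed the threshold, as did the allelic ratio in both. Eed epiblast had 87.7, 57.0, 63.9, 46.8, 53.9, 54.6, 78.8, 42.2 and 48.3 CPM in embryos 1 to 6 and 8 to 10, and 6 of the 9 were above the highest BDF1xCAST wild-type library (51.0 CPM). Rnf2 epiblast had 58.1, 51.6, 46.7, 54.1, 63.2 and 40.9 CPM, and 4 of 6 were above it. The highest CASTxBDF1 library, embryo 2, was at 52.2 CPM, above which stood 6 of the 9 Eed and 3 of the 6 Rnf2 libraries. The log2 change was 0.47 in Eed (SE 0.18, adjusted p = 0.0406, edgeR) and 0.42 in Rnf2 (SE 0.17, adjusted p = 0.0677, edgeR). The Eed call was lost when any of wild-type embryos 1, 2, 3, 4 and 8 or Eed embryos 1, 2, 3 and 8 was left out (adjusted p from 0.0513 to 0.0864, edgeR), with no filter on low counts (adjusted p = 0.0813), and for Grb10 reads outside LOC102631979 (log2 0.34, adjusted p = 0.255). The Rnf2 change passed in DESeq2 (0.40, adjusted p = 0.0437).

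The gain in Eed epiblast lay mainly in the maternal allele, at 56.1 ± 13.8 CPM against 37.1 ± 9.02 in the wild type (exact two-sided permutation p = 0.00533, adjusted p = 0.0427; with TMM scaling adjusted p = 0.108). Paternal Grb10 was at 3.13 ± 2.24 CPM in Eed epiblast and 0.932 ± 1.33 in the wild type (exact permutation, adjusted p = 0.0958). The allelic ratio was not called in epiblast for Eed (log2 -1.43, SE 0.55, adjusted p = 0.323, edgeR) or Rnf2 (-1.25, SE 1.19, adjusted p = 0.855, edgeR). For Eed it passed without wild-type embryo 8 (-2.12, adjusted p = 0.0491, edgeR). Outside LOC102631979 the mean paternal share was 5.84% in Eed epiblast (n = 9) and 0.698% in the wild type (n = 6 with 10 or more such reads). There, 7 of the 9 Eed and 4 of the 6 Rnf2 libraries were above the highest wild-type share (3.125%). The edgeR test of the Eed ratio outside LOC102631979, given below, did not pass. In Eed epiblast 1 of the 3 genes was called in total reads (35.7% of genes called) and 0 of 3 in allelic ratio (1.06% called; 1 of 3 at an unadjusted p under 0.05). In Rnf2 epiblast 1 of 3 was called in total reads (31% called).

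A single Rnf2 epiblast embryo, number 6, had 112 paternal of 351 Grb10 reads (31.9%, exact 95% interval 27.1% to 37.1%), while the other 5 had paternal shares of 0.199% to 6.32%. In that library 80.4% of the paternal Grb10 reads lay over LOC102631979. The remaining Grb10 reads there had a paternal share of 24.4%, against 0.284% to 7.82% in the other embryos. In wild-type embryo 8, all 5 paternal Grb10 reads lay over LOC102631979.

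Whether these effects differ between ExE and epiblast was tested as an interaction. The allelic shift of Grb10 did not pass for Eed (log2 difference -1.62, SE 0.89, adjusted p = 0.640, edgeR; 0.865% of genes called) or Rnf2 (-1.57, SE 1.65, adjusted p = 0.927, edgeR; 0.274% called). Outside LOC102631979 the Eed difference was -0.27 (adjusted p = 0.992, edgeR), with an Eed change in epiblast of -2.60 (adjusted p = 0.0661, edgeR). A shift particular to ExE was not shown. The change in total Grb10 reads did differ between tissues in Rnf2, by -0.90 (SE 0.27, adjusted p = 0.0392, edgeR, with 6.82% of genes called). The estimates within a tissue were -0.47 in ExE and 0.42 in epiblast, neither of them called. For Eed the total reads did not pass (-0.38, SE 0.29, adjusted p = 0.412, edgeR; 15.9% of genes called). The Rnf2 call was lost with an embryo replicate block (-1.10, adjusted p = 0.0832) and for reads outside LOC102631979 (-0.97, adjusted p = 0.159).

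In the G9a-Glp libraries Grb10 stayed maternal. The paternal allele had 0, 0, 0, 0, 6 and 1 reads in epiblast and 0 to 2 reads in each of the 8 ExE libraries. Grb10 was at 37.9 ± 8.05 CPM in epiblast and 26.1 ± 9.73 CPM in ExE. The change in level was -0.11 in epiblast (SE 0.18, adjusted p = 0.675, edgeR) and -0.22 in ExE (SE 0.20, adjusted p = 0.498, edgeR). The allelic change was 0.54 (SE 0.92, adjusted p = 0.918) and 0.88 (SE 0.80, adjusted p = 0.839, edgeR). None of the 3 genes was called in level or in allelic ratio in either tissue (edgeR, 0 of 3 at an unadjusted p under 0.05 in each; 34.6% and 15.2% of genes called in level, 1.79% and 1.1% in ratio). Nor did the G9a-Glp effect on Grb10 differ between the tissues in a test (edgeR: total -0.063, SE 0.28, adjusted p = 0.922, 6.83% of genes called; allelic 0.33, SE 1.08, adjusted p = 0.981, 0.311% called). In epiblast 4 of the 6 libraries, embryos 2, 4, 5 and 7, had neither Ehmt1 nor Ehmt2 below all wild-type BDF1xCAST libraries. Wild-type Ehmt2 was at a mean of only 3.07 CPM there. Without those 4 libraries the Grb10 level changed by -0.39 (adjusted p = 0.455, edgeR).

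By mean CPM the order of the groups for Grb10 was Eed epiblast (59.2 ± 15.2), Rnf2 epiblast (52.4 ± 7.98), CASTxBDF1 epiblast (41.7 ± 13.8), BDF1xCAST epiblast (38.0 ± 8.48), G9a-Glp epiblast (37.9 ± 8.05) and Eed ExE (33.9 ± 15.9). CASTxBDF1 ExE (30.4 ± 12.7), BDF1xCAST ExE (28.7 ± 4.92), G9a-Glp ExE (26.1 ± 9.73), Rnf2 ExE (21.5 ± 6.43), Dnmt1 ExE (3.99 ± 3.55) and Dnmt1 epiblast (3.94 ± 1.96) followed. Neighbours in this order overlapped in their libraries at every step except between Rnf2 ExE (lowest 13.8) and Dnmt1 ExE (highest 7.60).

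LOC102631979 cannot be measured apart from Grb10. Its reads of each allele never exceeded those of Grb10 in any of the 72 libraries, and strand was not given as used in counting, so its 8711 bases appear to be counted under both names. It held a mean of 32.5% of Grb10 reads in BDF1xCAST epiblast and 16.1% in ExE. It ranged up to 76.3% in wild-type epiblast embryo 8 and 74.4% in Rnf2 epiblast embryo 6.

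Its level followed Grb10 down in the Dnmt1 knockout, with 0.938, 4.38 and 1.34 CPM in epiblast against 3.30 to 22.1 in the wild type. That change was -2.69 (SE 0.65, adjusted p = 0.0153, edgeR), and it was lost without Dnmt1 embryo 1 (-2.24, adjusted p = 0.0805) and without embryo 3 (-2.50, adjusted p = 0.0740). It was also lost with the replicate block (-1.90, adjusted p = 0.134, edgeR), whose numbers do not pair Dnmt1 with wild-type libraries. In ExE the LOC102631979 change was -2.17 (SE 0.78, adjusted p = 0.0670, edgeR). It passed in DESeq2 (-2.20, adjusted p = 0.0268), and in edgeR with sex as a covariate (-2.37, adjusted p = 0.0411), without wild-type embryo 4 (-2.29, adjusted p = 0.0497) and without Dnmt1 embryo 2 (-3.45, adjusted p = 0.0466). In Eed ExE its level rose, to 10.9 ± 6.42 from 4.60 ± 2.22 CPM (log2 1.02, SE 0.36, adjusted p = 0.0302, edgeR). With Ddc, 2 of the 3 genes were called in Eed ExE (40.8% of genes called). The LOC102631979 call was lost without wild-type embryo 3 (0.86, adjusted p = 0.0668), wild-type embryo 4 (0.86, adjusted p = 0.0649) or Eed embryo 1 (0.78, adjusted p = 0.0674), and with all groups in a single fit (1.03, adjusted p = 0.0514). Its paternal allele was higher in Eed ExE by 1.35 CPM, from 0.0470 ± 0.124 CPM in the wild type (exact permutation, adjusted p = 0.0364), resting on 1 paternal read in the whole wild-type group. Without the reads over it, the allelic shift of Grb10 was -2.91 in Eed ExE (adjusted p = 0.0010, edgeR) and -2.67 in Rnf2 ExE (adjusted p = 0.0270, edgeR).

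**Figure D3:**
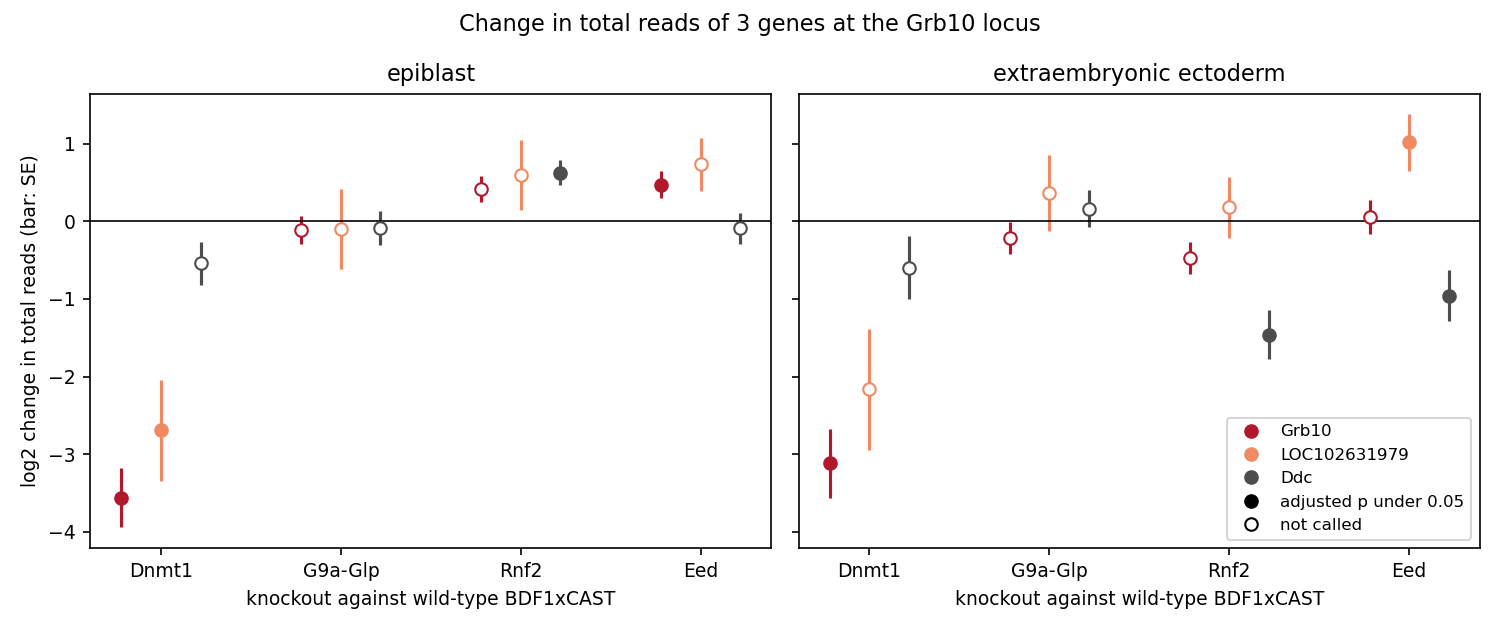
Log2 change in total reads of Grb10, LOC102631979 and Ddc in each knockout against wild-type BDF1xCAST (x axis), for epiblast (left) and extraembryonic ectoderm (right). Bars are SE, and filled points passed an adjusted p of 0.05. Grb10 is lowest in Dnmt1 (-3.56 and -3.12), and Ddc is lowest in Rnf2 ExE (-1.46).

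Ddc, the biallelic neighbour, was lower than the wild type in the ExE libraries labelled Rnf2 and Eed, and higher in Rnf2 epiblast. In Eed epiblast its change did not pass (log2 -0.09, SE 0.20, adjusted p = 0.755, edgeR). Rnf2 ExE had 6.62, 2.92, 5.95, 2.56 and 5.00 CPM, all 5 below the lowest of the wild-type libraries (7.86 to 16.1 CPM). The change was -1.46 (SE 0.32, adjusted p = 0.00422, edgeR), and Ddc was the only one of the 3 genes called in level there (22.2% of genes called). Eed ExE had 1.17 to 11.8 CPM with a median of 6.04, and 7 of 10 libraries were below the wild type. That change was -0.96 (SE 0.33, adjusted p = 0.0263, edgeR), lost without wild-type embryo 7 (-0.88, adjusted p = 0.0599) or 8 (-0.82, adjusted p = 0.0702). As above, the summed ExE markers were lower and the visceral endoderm markers higher in Eed ExE than in the wild type, and visceral endoderm markers were at 19.8 to 34.0 CPM in Rnf2 ExE against 8.56 to 21.3 CPM. Their part was not tested.

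Rnf2 epiblast had 21.1, 25.4, 24.2, 26.1, 26.5 and 18.3 CPM of Ddc, against 13.0 to 15.2 in 6 BDF1xCAST wild-type libraries and 21.3 in embryo 8. The CASTxBDF1 epiblast libraries had 11.2 to 25.9 CPM. As given above, the Rnf2 epiblast libraries were also deeper than the wild-type ones, and the part of depth was not tested. The change was 0.63 (SE 0.16, adjusted p = 0.00846, edgeR). It was lost without Rnf2 embryos 3 and 5 together, whose Rnf2 transcript was not below the wild type (0.57, adjusted p = 0.0517, edgeR). It was also lost with the replicate block (0.56, adjusted p = 0.177, edgeR), whose numbers do not pair Rnf2 with wild-type libraries. The Rnf2 effect on Ddc differed between ExE and epiblast by -2.10 (SE 0.34, adjusted p = 0.000195, edgeR, with 6.82% of genes called). For Eed this difference was -0.83 and did not pass (SE 0.40, adjusted p = 0.158, edgeR, with 15.9% of genes called).

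Counted per allele, both alleles of Ddc fell in Rnf2 ExE. Maternal Ddc was at 2.18 ± 0.871 CPM against 6.71 ± 2.71 (exact permutation, adjusted p = 0.0444) and paternal Ddc at 2.43 ± 1.36 against 5.14 ± 1.08 (exact permutation, adjusted p = 0.0364). In Rnf2 epiblast maternal Ddc was at 10.9 ± 1.29 CPM, and 6 of 6 libraries were above the highest BDF1xCAST wild-type library (8.48 CPM; exact permutation, adjusted p = 0.0247), though none was above CASTxBDF1 embryo 2 (13.3 CPM). Paternal Ddc was at 12.7 ± 3.42 against 8.60 ± 4.23 (adjusted p = 0.225, exact permutation). The allelic ratio of Ddc was not called in any knockout of either tissue (edgeR adjusted p from 0.725 to 1.00, with 0 of 8 at an unadjusted p under 0.05), while 0.696% of genes were called in Rnf2 epiblast, and for Dnmt1 0.908% in epiblast and 0.856% in ExE. In the Dnmt1 knockout, where Grb10 fell, Ddc was at 11.7, 15.8 and 8.72 CPM in epiblast (log2 -0.54, SE 0.28, adjusted p = 0.224, edgeR) and 15.8, 7.60 and 4.73 CPM in ExE (-0.60, SE 0.40, adjusted p = 0.339, edgeR).

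**Figure D4:**
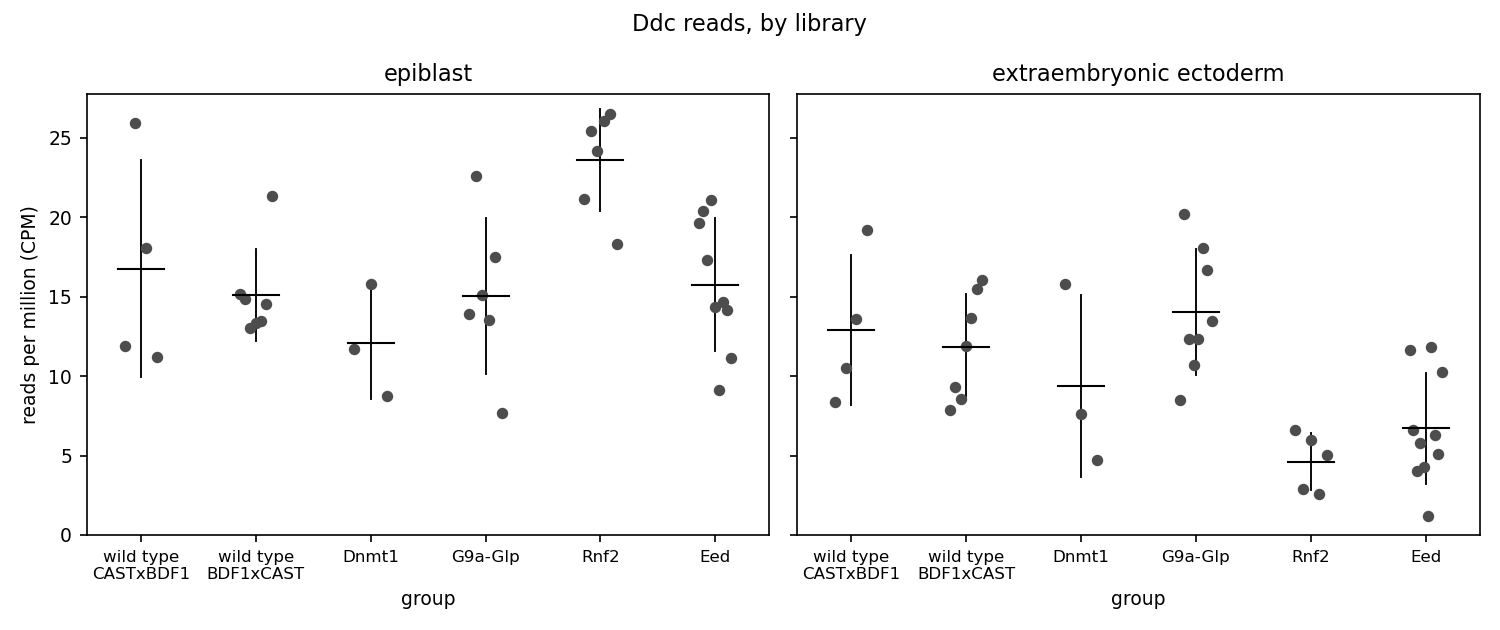
Ddc CPM in each library, by group (x axis), for epiblast (left) and extraembryonic ectoderm (right). Horizontal bars are means and vertical bars SD. All 5 Rnf2 ExE libraries lie below the wild-type BDF1xCAST ExE libraries (7.86 to 16.1 CPM).

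Over all groups Ddc was highest in Rnf2 epiblast (23.6 ± 3.23 CPM), followed by CASTxBDF1 epiblast (16.8 ± 6.84), Eed epiblast (15.8 ± 4.16), BDF1xCAST epiblast (15.1 ± 2.88) and G9a-Glp epiblast (15.1 ± 4.91). G9a-Glp ExE (14.0 ± 3.95), CASTxBDF1 ExE (12.9 ± 4.72), Dnmt1 epiblast (12.1 ± 3.54), BDF1xCAST ExE (11.8 ± 3.35) and Dnmt1 ExE (9.38 ± 5.74) came next. Eed ExE (6.70 ± 3.50) and Rnf2 ExE (4.61 ± 1.81) were lowest. Neighbours in this order overlapped in their libraries throughout.

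Of the 16 other genes of the table within 1 Mb of Grb10, only 1 to 3 had enough reads to enter a test of total reads. Fignl1, which encodes a protein of DNA repair and lies beyond Ddc, fell in Rnf2 ExE (log2 -0.48, SE 0.16, from 92.2 ± 14.8 to 69.0 ± 15.6 CPM, adjusted p = 0.0414, edgeR) and in Eed ExE (-0.40, SE 0.16, adjusted p = 0.0466, edgeR), where 22.2% and 40.8% of all genes were called. Cobl, an actin nucleator gene on the other side of Grb10, fell in Dnmt1 epiblast from 8.00 ± 2.60 to 2.08 ± 0.993 CPM (-2.19, SE 0.52, adjusted p = 0.0137, edgeR; 14.1% of genes called). Zpbp, named for the zona pellucida, rose in Eed ExE (1.09, SE 0.41, adjusted p = 0.0394, edgeR). No parental term of a neighbour was called (0 of 2 tested in epiblast, where 0.319% of genes were called, and 0 of 1 in ExE, where 0.844% were, edgeR).

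Grb10 protein acts on the insulin and IGF receptors, and genes of that pathway were counted from a fixed list of 35 (34 in the table), of which 22 to 26 could be tested for total reads in each knockout. Of them, the Dnmt1 knockout had 1 call among 24 in epiblast and 3 among 26 in ExE, and G9a-Glp had 2 among 23 and 2 among 24. Rnf2 had 4 among 23 in epiblast and 5 among 24 in ExE, and Eed had 5 among 22 and 11 among 26. Of all genes tested, 14.1% and 18.5% were called in Dnmt1 epiblast and ExE, 34.6% and 15.2% in G9a-Glp, 31% and 22.2% in Rnf2, and 35.7% and 40.8% in Eed, so that the list's share was near or below the background in all 8 comparisons. The list's median change lay between -0.12 and -0.0011 on the log2 scale in all 8 comparisons, and that of all genes tested between -0.03 and 0.02. Igf1r, the IGF1 receptor, fell in Rnf2 epiblast (45.5 ± 12.3 to 24.9 ± 8.43 CPM, log2 -0.88, adjusted p = 0.00592, edgeR), Rnf2 ExE (9.75 ± 3.21 to 4.00 ± 1.73 CPM, -1.24, adjusted p = 0.0102, edgeR) and Eed epiblast (to 33.3 ± 7.73 CPM, -0.60, adjusted p = 0.0112, edgeR). In Eed ExE the largest calls were rises of Grb14, an adaptor of the same family as Grb10 (0.934 ± 0.702 to 5.19 ± 2.91 CPM, 2.24, adjusted p = 0.000732, edgeR), Igf2r, the IGF2 clearance receptor (1.47 ± 1.68 to 4.87 ± 2.68 CPM, adjusted p = 0.0290, edgeR), the ligand Igf2 (0.93, adjusted p = 0.0297, edgeR) and Foxo3, a transcription factor held back by insulin signalling (0.93, adjusted p = 0.00518, edgeR). The kinase Akt1 rose in Dnmt1 ExE (40.0 ± 8.59 to 117 ± 22.2 CPM, 1.31, adjusted p = 0.000727, edgeR) and in Rnf2 ExE (0.83, adjusted p = 0.00420, edgeR). No gene of the list was called in allelic ratio in any knockout (0 of 15 to 24 tested, edgeR), where 0.696% to 2.65% of all genes were called.

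Around Ddc, enzymes of amine metabolism and of its cofactor tetrahydrobiopterin were counted from a list of 14, of which 6 to 8 could be tested. In Rnf2 ExE 6 of 7 were called, 4 higher and 2 lower (22.2% of all genes called), and in Eed ExE 5 of 6, 4 higher and 1 lower (40.8% called). There Qdpr, which regenerates tetrahydrobiopterin, rose from 85.1 ± 18.0 to 197 ± 4.66 CPM in Rnf2 (1.16, adjusted p = 3.83e-05, edgeR) and to 207 ± 57.1 CPM in Eed (1.12, adjusted p = 2.79e-05, edgeR). Maoa, which degrades monoamines, fell in ExE of all 4 knockouts, by the most in G9a-Glp (15.5 ± 3.15 to 3.36 ± 0.994 CPM, -2.24, adjusted p = 2.27e-06, edgeR). In epiblast, calls numbered 3 of 8 with G9a-Glp, 3 of 7 with Rnf2 and 4 of 7 with Eed, beside 34.6%, 31% and 35.7% of all genes. Spr, which completes tetrahydrobiopterin synthesis, rose in those 3, from 3.50 ± 4.23 CPM to 24.0 ± 4.57 in G9a-Glp (adjusted p = 0.000337), 24.0 ± 6.13 in Rnf2 (adjusted p = 0.000530) and 27.9 ± 12.5 in Eed (adjusted p = 0.000111, edgeR). Tph2, a tryptophan hydroxylase, rose in G9a-Glp epiblast from 0.596 ± 1.42 to 17.2 ± 7.20 CPM (5.28, adjusted p = 2.07e-05, edgeR). In Dnmt1, 2 of 7 were called in epiblast (14.1% of all genes) and 2 of 6 in ExE (18.5%). The median change of the list was 0.82 in Rnf2 ExE and 0.72 in Eed ExE, against -0.03 and 0.02 over all genes tested.

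As a frame for Grb10, 22 maternally expressed imprinted genes were counted in the same tests. In ExE their allelic ratio moved toward the father in 6 of the 10 tested in Dnmt1 (0.454% of all genes tested moved so), 3 of the 12 tested in G9a-Glp (0.481%), 6 of 12 in the Rnf2 libraries (0.467%) and 7 of 12 in the Eed libraries (1.43%), and toward the mother in none. The median change in log2 ratio was -3.29, -1.80, -3.84 and -3.20, beside -2.84 for Grb10 in Rnf2 and -3.06 in Eed. In epiblast 5 of 9, 0 of 12, 1 of 12 and 1 of 12 moved toward the father in the same order of knockouts (edgeR), where 0.531%, 1.14%, 0.37% and 0.719% of all genes did.

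**Figure D5:**
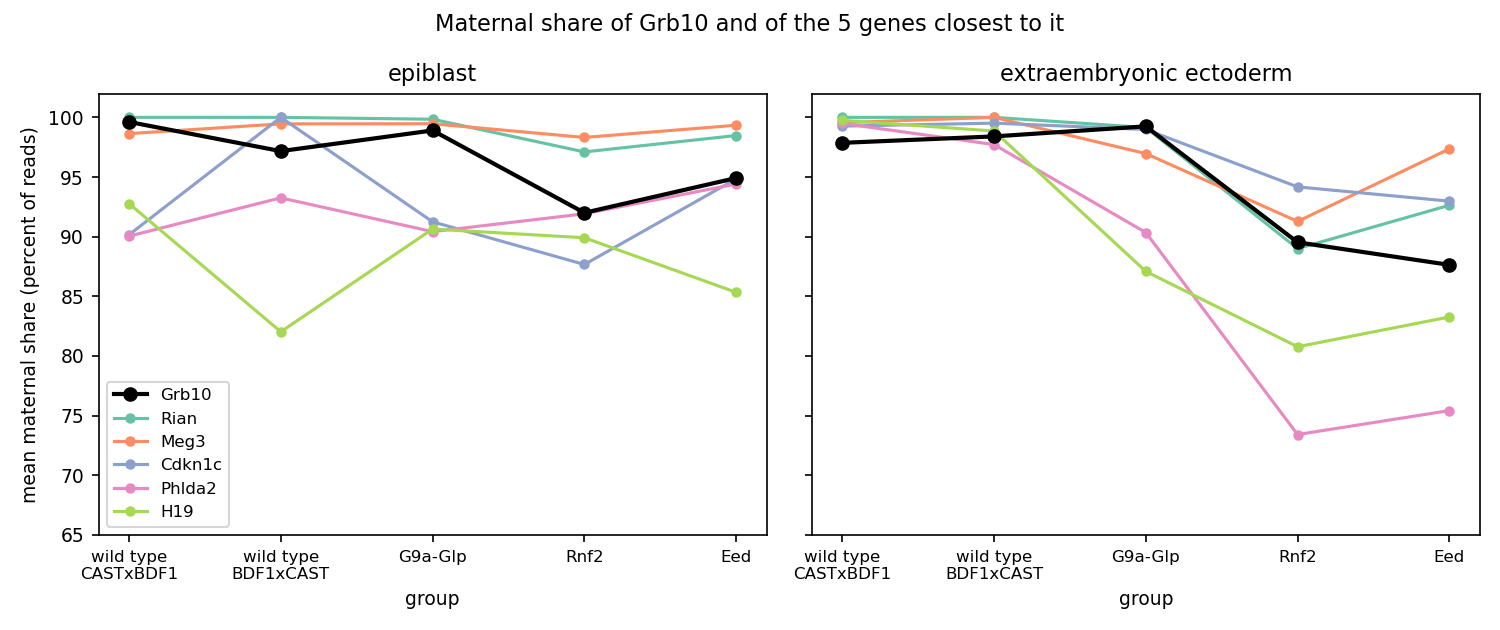
Mean maternal share of reads (percent, axis from 65%) for Grb10 (black) and the 5 genes closest to it over 10 groups, by group (x axis), for epiblast (left) and extraembryonic ectoderm (right). Points are group means over libraries with at least 10 reads, and Dnmt1 is left out because Grb10 had too few reads. Grb10 is at 98.4% in wild-type BDF1xCAST ExE, 89.5% in Rnf2 ExE and 87.6% in Eed ExE.

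The genes most like Grb10 in mean maternal share over 10 groups (Dnmt1 left out), among 7378 autosomal genes, were Rian, with a root mean square difference of 2.83 percentage points, Meg3 (4.17), Cdkn1c (4.78), Phlda2 (8.19) and H19 (8.29). All 5 are imprinted genes expressed from the maternal allele. Their shares in Eed ExE were 92.6%, 97.4%, 93.0%, 75.4% and 83.3%, with Grb10 at 87.6%. In level, the genes with the highest Pearson correlation with Grb10 over the 12 group means of log2(CPM + 1), among 7689 genes, were Scnm1 (0.90), Atp5e (0.88), Lamtor3 (0.84), Ift43 (0.84) and Lamtor5 (0.83). All 5 were lowest in one of the Dnmt1 groups, as was Grb10, and the 12 means share their libraries, so this is a description with no test.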

How the data were processed

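RNA from dissected tissue of single embryos was, per the labels' protocols, amplified with SMART-Seq v4 and sequenced on a NovaSeq. The submitters' processing notes name STAR 2.5.0, HTSeq and mm10, without their roles; the set of strain differences used is not given in the sources used here. Per the file headers, the authors deposited for each RefSeq gene and library a count of allele-informative reads, an allelic ratio (the CAST share less 0.5) and an allelic score. The deposited score behaves as a signed log10 of a binomial p, and is 0 under 10 reads. Whole CAST read counts were recovered as those matching the score within 0.002, for 99.595% of scored values below the score's limit. The 0.473% unmatched or at the limit, which hold 7.56% of reads, used the rounded ratio, and every value of Grb10, LOC102631979 and Ddc matched. Missing values were taken as 0 reads.

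Maternal and paternal reads followed from the cross. CPM is reads per 1000000 informative reads of the library. The maternal to paternal ratio was tested with edgeR 4.0.16 (quasi-likelihood, library terms) on autosomes only, where 3 or more libraries of each group held 10 or more reads of the gene, and total reads with edgeR, TMM and its expression filter. P-values were two-sided and Benjamini-Hochberg adjusted across the genes of each fit, and 0.05 was the threshold. The fits were tested on simulated data. Allele CPM was compared by exact permutation (scipy 1.17.1), adjusted over 48 tests. In BDF1xCAST the mother is always BDF1, so only the reciprocal wild-type fit separates parent from strain. Alternatives were limma 3.58.1 on log ratios with a pseudocount of 0.5, DESeq2 1.42.0 (R 4.3.3), no filter, all groups in a single fit, sex as a covariate, a replicate block and each library left out; 2 more were chosen after seeing the data. Embryo numbers shared by knockout and wild type did not pair the libraries. Wild-type epiblast and ExE of 1 number come from the same embryo per the labels (correlation of deviations 0.0201 to 0.47 over 7 pairs), and that block changed no tissue call of the 3 genes. For Eed embryos 8 to 10 the embryo label, used here as the number, and the number in the sample title disagree between the tissues, so that a block over Eed tissues may join different embryos.

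The genes, lists and tests were chosen with earlier results of these data known. Neighbours within 1 Mb were named where called, up to 4 genes of a list per comparison by fold change, and 5 genes by likeness to Grb10. Likeness in maternal share was set for all 12 groups, but used 10, since Grb10 lacked reads in Dnmt1. A bisulfite sample was not analysed here.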

Additional observations from a re-analysis of the deposited data

Results flagged for a closer look

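Dixon's criterion at 95% was applied to 58 sets of 4 to 10 libraries, each of 1 gene, 1 measure and 1 group, and 12 had a library standing apart. The sets are not independent, since reads over LOC102631979 appear to be counted for Grb10 too. Where all other maternal shares were 100%, any paternal read flags a library. The number flagged can therefore not be set against a chance rate. Wild-type BDF1xCAST epiblast embryo 8 accounted for 3 of the 12, with a Grb10 maternal share of 86.8%, a LOC102631979 maternal share of 82.8% and a Ddc level of 21.3 CPM. Its summed visceral endoderm markers (641 CPM) and nascent mesoderm markers (998 CPM) were also the highest of its group, and their part in these values was not tested.

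Rnf2 epiblast embryo 6 accounted for a further 3, with a Grb10 maternal share of 68.1%, a LOC102631979 maternal share of 65.5% and a LOC102631979 level of 47.0 CPM. G9a-Glp epiblast embryo 5 had maternal shares of 94.3% for Grb10 and 80.6% for LOC102631979. G9a-Glp ExE embryo 7 stood apart in LOC102631979 level, at 20.9 CPM, and in its maternal share, at 96.4%. The LOC102631979 maternal share of wild-type ExE embryo 7 was 93.8%, from a single paternal read. Eed ExE embryo 1 had 26.6 CPM of LOC102631979, the highest of its group.

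The effect of Rnf2 on total reads differed between ExE and epiblast for Grb10, by -0.90 on the log2 scale (adjusted p = 0.0392, edgeR). For Ddc it differed by -2.10 (adjusted p = 0.000195, edgeR). Of all genes, 6.82% were called in that test. As given above, the Grb10 call was lost with an embryo replicate block and for Grb10 reads outside LOC102631979.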

How the results depend on the processing

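Leaving out a library aside, called results of the 3 genes were repeated under alternative settings 95 times in all, several times for most results. The call stayed in 84 of these repeats and was lost in 11. Every result whose sign turned was uncalled in both fits. The Grb10 falls in Dnmt1 and the allelic shift in Eed ExE stayed called throughout. Depth limits the allelic results: Grb10 had 1 to 13 reads in each Dnmt1 library. The cause of the changes below was not tested.

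With the replicate block, whose numbers pair wild-type tissues of an embryo but not knockout with wild type, Grb10 allelic change was -2.78 in Rnf2 ExE (no longer called), the Rnf2 difference between tissues in its total reads -1.10 (no longer called), and the G9a-Glp differences between tissues -1.56 (allelic) and 0.056 (total). Under the block, LOC102631979 gave 0.0032 (G9a-Glp epiblast, total), -0.92 (Rnf2 epiblast, allelic), and 0.046 and 0.19 between crosses, and Ddc allelic changes were -0.020 (Dnmt1 epiblast), 0.16 (Eed epiblast) and 0.083 (G9a-Glp ExE). The block changed no other Grb10 call. In Eed, labels of embryos 8 to 10 disagree on which epiblast and ExE belong together, so its tissue block may join different embryos. limma gave -2.89 for Grb10 in Rnf2 ExE (no longer called), and for LOC102631979 -0.46 in G9a-Glp epiblast and -0.15 between tissues. DESeq2 gave 0.40 for total Grb10 in Rnf2 epiblast (called) and -0.17 for the LOC102631979 ratio in G9a-Glp epiblast. Without libraries whose targeted transcript was not lower, the Ddc ratio in G9a-Glp epiblast was -0.12 and the LOC102631979 ratio in Rnf2 epiblast -0.080; in Rnf2 ExE this could not be run. With no filter, total Grb10 in Eed epiblast was 0.47 (not called). Outside LOC102631979, Grb10 totals were 0.34 (Eed epiblast, not called) and -0.24 (Eed ExE), its allelic tissue difference -0.87, and its differences between tissues -0.59 (G9a-Glp, allelic) and -0.97 (Rnf2, total, not called). With sex as a covariate, totals between crosses in ExE were -0.15 (Grb10) and -0.035 (Ddc). With TMM, maternal CPM differences were -2.19, 14.0 (not called), -9.91 (called) and -2.29 for Grb10 in G9a-Glp epiblast, Eed epiblast, Rnf2 ExE and Eed ExE, -0.57 and -0.17 for LOC102631979 in G9a-Glp epiblast and Rnf2 ExE, and -0.018 for Ddc in Eed epiblast.

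Leaving out 1 library at a time, Grb10 allelic changes ranged from -0.15 to 2.48 (G9a-Glp epiblast), -1.996 to -0.39 (Rnf2 epiblast), -2.12 to -1.13 (Eed epiblast) and -0.45 to 0.75 (tissue). Its totals ranged from 0.33 to 0.50 (Rnf2 epiblast), 0.40 to 0.55 (Eed epiblast), -0.11 to 0.14 (Eed ExE), -0.44 to -0.28 (tissue) and -0.19 to 0.27 (crosses, ExE). LOC102631979 allelic changes ranged from -0.93 to 1.95 (G9a-Glp epiblast), -0.64 to 2.47 (Rnf2 epiblast) and -0.81 to 0.47 (Eed epiblast), and totals from -0.28 to 0.11 (G9a-Glp epiblast), -0.23 to 0.55 (G9a-Glp ExE) and -0.029 to 0.35 (Rnf2 ExE). Ddc allelic changes ranged from -0.23 to 0.46 (Dnmt1 epiblast), -0.15 to 0.27 (Rnf2 epiblast), -0.28 to 0.15 (Eed epiblast), -0.081 to 0.15 (Dnmt1 ExE), -0.25 to 0.082 (G9a-Glp ExE) and -0.085 to 0.24 (parental term, epiblast), and totals from -0.19 to 0.055 (G9a-Glp epiblast), -0.037 to 0.36 (crosses, epiblast) and -0.17 to 0.26 (crosses, ExE).

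Counts of genes called moved by over 1.5 times in some fits. Allelic counts in Dnmt1, G9a-Glp, Rnf2 and Eed were 65, 156, 64 and 96 in epiblast and 66, 96, 83 and 237 in ExE. With no filter they were 134, 266, 206 and 214, and 156, 202, 236 and 396; with limma, 25, 51, 27 and 23, and 13, 36, 15 and 152. DESeq2 gave 139 and 130 in Rnf2, the block 21 (Rnf2) and 43 (Eed) in epiblast and 26 in Rnf2 ExE, and a single fit 110 in Rnf2 epiblast. Without doubted libraries they were 33 (G9a-Glp) and 39 (Rnf2) in epiblast and 36 in Dnmt1 ExE. With no filter, parental counts went from 27 to 59 and from 73 to 154, and total reads between tissues from 5293 to 8435; limma took allelic calls between tissues from 513 to 318. For total reads the block gave 1125 of 3144 (Rnf2) and 1909 of 3510 (Eed) in epiblast and 494 of 2113 in Rnf2 ExE, a single fit 2274 against 1445 (Dnmt1 epiblast), and doubted libraries out 745 against 3305 (G9a-Glp epiblast) and 1047 against 1804 (Dnmt1 ExE). Between crosses DESeq2 gave 22 against 1 and 252 against 101, and the sex covariate 0 against 1 in epiblast. Differences between tissues under the block went from 0 to 7 (Dnmt1, allelic) and from 774 to 398 (Rnf2, total).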
